A study of Mus musculus with 20 samples.

Results

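Adult footpad skin of Tabby mice was compared with that of wild-type (WT) mice. The arrays compared were 4 of the 20 of the series, 2 of WT and 2 of Tabby mice, chosen by their labels. Both genotypes carried the strain label C57BL6/J and were taken at postnatal day 56. The labels call each array a biological replicate. They do not name the Tabby allele, and they give neither sex nor whether RNA of several animals was pooled. The p-values therefore measure spread between samples, estimated over all 20 arrays of the series. On every array, total RNA of dissected footpads was labelled with Cy3, and a reference was labelled with Cy5. The reference was one pool of cultured mouse cell lines mixed with embryonic stem cell RNA, and no array had the dyes swapped. The other 16 arrays held the same genotypes before birth (E17.5) and on postnatal days 1, 3 and 5, called P1, P3 and P5.

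Tabby is a mutation of the ectodysplasin gene, whose product signals through a receptor of the tumour necrosis factor receptor family to the transcription factor NF-kappaB. The pathway is needed for the formation of several skin appendages. In mice, eccrine sweat glands lie in the footpads, and Tabby mice form none there. The series carries the name of a search for potassium and chloride channels of these glands. In a bulk sample, fewer cells of a type and less RNA per cell cannot be told apart.

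Probes carried identifiers and 60-base sequences but no gene names: 0 of 42006 had a name beside the identifier. Neither the ectodysplasin gene nor any list of sweat gland, channel or keratinocyte genes could therefore be read, and the genotype and tissue labels could not be checked against their markers. The results are given by probe. The sequences below belong to the probes on which the results turn, and they allow each to be traced to a transcript. The first pair shared 56 bases, shown in capitals, and both probes were far lower in Tabby skin.
Z00022872-1: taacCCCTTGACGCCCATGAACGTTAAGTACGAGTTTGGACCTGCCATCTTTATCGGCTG
Z00055094-1: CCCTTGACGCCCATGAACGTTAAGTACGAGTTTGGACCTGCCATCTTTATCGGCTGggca
The next probes were among the largest losses seen in both Tabby samples with signal above background on all 4 arrays. Capitals mark AATAAA, the usual polyadenylation signal, where a probe holds it.
Z00074275-1: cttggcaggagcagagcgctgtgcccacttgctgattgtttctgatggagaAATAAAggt
Z00025366-1: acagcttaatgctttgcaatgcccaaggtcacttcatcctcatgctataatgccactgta
Z00054396-1: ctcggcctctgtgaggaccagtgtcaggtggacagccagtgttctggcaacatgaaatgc
Z00014880-1: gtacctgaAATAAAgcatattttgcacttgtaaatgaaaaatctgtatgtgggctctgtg
One probe stood for those higher in both Tabby samples, and the last pair for those high in Tabby replicate 1 alone.
Z00006534-1: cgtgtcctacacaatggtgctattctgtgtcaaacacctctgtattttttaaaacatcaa
Z00058188-1: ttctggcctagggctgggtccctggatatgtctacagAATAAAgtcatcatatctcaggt
Z00023637-1: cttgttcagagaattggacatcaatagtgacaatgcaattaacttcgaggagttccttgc

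The value of a probe was its log2 ratio of footpad over reference, taken from the scanner software's log ratio with the sign turned. A probe was tested if its Cy3 signal was well above background, by the software's own flag, on at least 2 of the 20 arrays, and 32124 probes were. Between 27195 and 30269 probes were well above background on the 4 adult arrays, and 26673 tested probes were so on all 4. Tabby replicate 2 had the fewest, also among all 20 arrays. The number of arrays, 2 per genotype, limits the precision. On the scanner's ratio, the adult Tabby samples were the least alike of the 10 replicate pairs: the SD of their difference over all tested probes was 0.547 log2, against 0.342 to 0.421 in the other pairs, which include 0.418 for adult WT. After normexp and loess it was 0.309, below the 0.425 of the E17.5 Tabby pair. Their log2 ratios correlated at 0.955 across probes, which are not independent, against 0.974 for the WT pair, and Tabby replicate 2 correlated with WT replicate 2 as highly as with Tabby replicate 1, at 0.955. Per the file headers, the 4 adult arrays lay on 1 of 5 slides, WT at positions 1 and 2 and Tabby at 3 and 4, so genotype and position cannot be told apart. Changes shared by both Tabby samples are therefore kept apart here from those of one.

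Tabby and WT footpads differed at 2959 probes in a limma fit over all 20 arrays (Benjamini-Hochberg adjusted p under 0.05), which is 9.21% of those tested. More probes were lower in Tabby skin than higher: 1815 (5.65%) were lower and 1144 (3.56%) higher. The lower probes also moved further. Of them, 607 were lower at least 2-fold, 233 at least 4-fold and 117 at least 8-fold, and the counts higher were 170, 20 and 8. The median fold change was 1.61 among lower probes and 1.43 among higher ones. At every called probe the Tabby arrays lay on one side of both WT arrays. Both lay below both WT arrays at 19.3% of all tested probes and above at 24.0%. The calls were made from the same values, so this separation describes them and supports nothing. At an unadjusted p under 0.05 there were 7867 probes. A fit to the 4 adult arrays alone, with 2 samples a genotype, called 0 probes after adjustment and 3214 at an unadjusted p under 0.05. The calls thus rest on the spread shared with the other stages. On this ratio the adult Tabby pair varied more (SD 0.547 log2) than the other pairs (0.342 to 0.421). The shared spread can therefore be too small for adults, and the adult p-values too low. Single arrays moved the count too: without WT replicate 1 there were 1326 calls, and without Tabby replicate 2 there were 6193 (3146 lower, 3047 higher). With array weights, which gave each adult Tabby array 0.258 and each adult WT array 0.663, 638 probes were lower and 88 higher. With normexp background correction and loess normalization in place of the scanner's ratio, 1390 were lower and 587 higher.

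**Figure D1:**
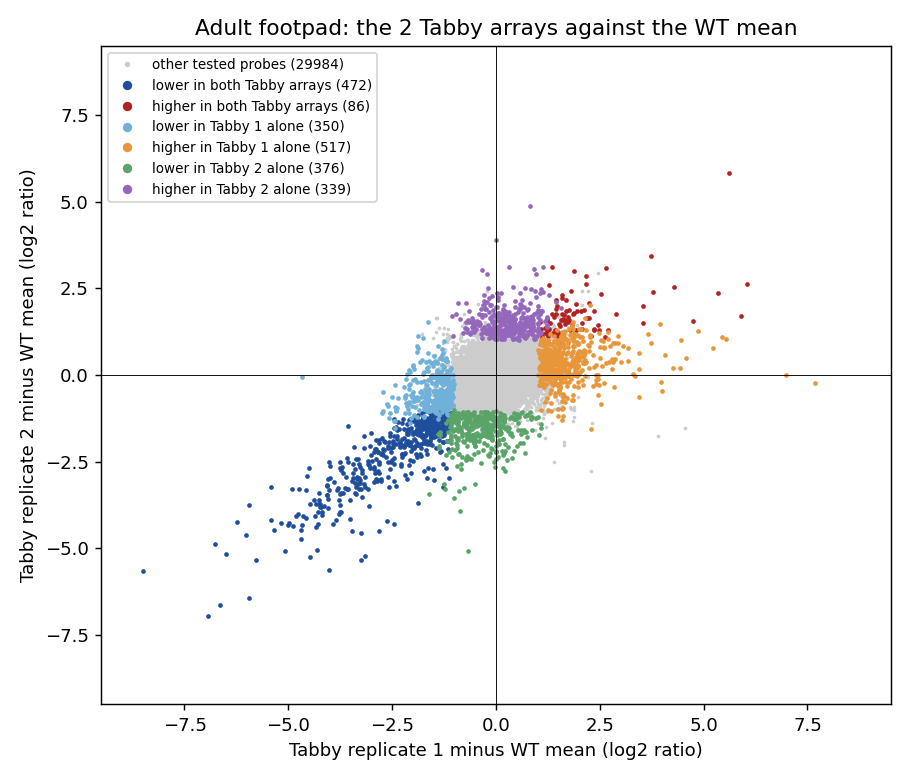
Each point is a tested probe. The axes give the log2 ratio of Tabby replicate 1 (horizontal) and replicate 2 (vertical) minus the mean of the WT arrays. Colours mark probes over 2-fold beyond both WT arrays in both Tabby samples or in 1 alone. The 472 probes lower in both form a long arm at lower left, and the 86 higher in both are fewer and scattered.

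To separate the samples, each Tabby array was set against the nearer of the WT arrays. At 472 probes (1.47% of tested) both Tabby arrays were over 2-fold below both WT arrays, and at 86 (0.268%) both were over 2-fold above. Replicate 1 alone was below at 350 probes (1.09%) and above at 517 (1.61%). Replicate 2 alone was below at 376 (1.17%) and above at 339 (1.06%). Both WT arrays and just 1 Tabby array were well above background at 122 of the 376, against 16 of the 350. The part of signal in this was not tested. The Tabby samples went opposite ways past 2-fold at 16 probes. The shared class was thus mostly a loss of signal, while each sample's own class held both directions. Of the 472 probes, 434 were also called lower by the fit, and 58 of the 86 were called higher. The classes were cut from the same values as the fit, so these counts describe them and support nothing. At the edge of 2-fold, 129 of the 472 and 49 of the 86 exceeded it by less than 0.25 log2.

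More of the shared losses than of the shared gains stayed in their class after normexp and loess. On all 4 arrays well above background were 310 of the 472 lower probes, and 222 of these stayed in the class after normexp and loess. Of the 86 higher probes, 27 were well above background on all 4 arrays, and 4 of these stayed. In the authors' deposited table, 287 of 304 losses and 51 of 67 gains that it held stayed. The brightness of the probes moved with this, and its part was not tested: the median Cy3 signal in adult WT was 8.45 log2 for the lower class and 6.30 for the higher, against 8.52 over all tested probes. On 82 of the 472 both WT arrays and no Tabby array were above background. For these the Tabby level has only a bound. A bound is written here as at least N-fold: the WT mean over the lowest signal counted as well above background on each Tabby array, or over the probe's own signal if that is higher. It was computed on normalized Cy3 signal and is open to dye bias.

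Large losses with signal above background on all 4 arrays were named after their values were seen, 6 in number beside 2 that also ranked among the 12 largest of all. The brightest of the 6 was Z00074275-1. Its log2 ratios were 4.41 and 4.42 in WT and -1.0 and 0.24 in Tabby, with Cy3 signals of 16.21 and 16.24 against 10.82 and 12.06 log2. Saturation of the bright WT spots was not tested, so the size of the loss and the closeness of the WT values are uncertain. Both Tabby samples were far below both WT samples, and they differed from each other by over 1 log2. The difference was -4.80 ± 0.28 (SE) log2, a 27.8-fold loss (limma adjusted p = 5.6e-07). At P5 the same difference was -0.69, with an adjusted p of 0.44.

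The overlapping pair printed first gave the same result from different spots. Z00022872-1 had log2 ratios of 0.48 and 0.06 in WT and -4.74 and -4.06 in Tabby, a difference of -4.67 ± 0.18 (SE, limma adjusted p = 2.2e-08). Z00055094-1 had 0.50 and 0.04 against -4.72 and -4.00, a difference of -4.63 ± 0.20 (limma adjusted p = 4.9e-08). The probes ranked the 4 samples alike, with Tabby replicate 1 lowest and WT replicate 1 highest. Both were already lower at P5, with differences of -2.11 and -2.15 log2 (limma adjusted p = 5.9e-05 and 1.3e-04).

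Z00054396-1 and Z00014880-1 fell by nearly as much. The ratios of Z00054396-1 were 2.68 and 2.13 in WT and -2.48 and -1.94 in Tabby, a 24.5-fold loss (limma adjusted p = 3.1e-08). Those of Z00014880-1 were 1.50 and 1.27 against -3.30 and -3.08, a 23.8-fold loss (limma adjusted p = 1.9e-08). In both, the genotypes lay more than 4 log2 apart while replicates of a genotype lay within 0.6 of each other. At P5, Z00054396-1 was at -0.32 (limma adjusted p = 0.62) and Z00014880-1 at -0.94 (limma adjusted p = 0.025). The 2 probes were not tested against each other. Z00047237-1 was as far down, at 5.86 and 6.06 in WT and 1.26 and 1.24 in Tabby, and its reference signal was above background on only 2 of the 4 arrays.

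By size alone, the 12 largest losses among called probes included just 2 that were well above background on all 4 arrays. One was Z00025366-1, at 4.30 and 3.89 in WT and -2.68 and -0.78 in Tabby, so that Tabby lay 56.8-fold below WT (-5.83 ± 0.42 SE on the log2 scale, limma adjusted p = 3.4e-06). At P5 it was lower too, by a difference of -3.82 (limma adjusted p = 0.00058). The other, Z00060090-1, stood at 4.73 and 4.69 against -1.32 and 0.09, and it was at -0.16 at P5 (limma adjusted p = 0.92). In both probes replicate 1 was the lower Tabby sample.

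The largest difference of all was at Z00025925-1. Its log2 ratios were 3.42 and 2.72 in WT and -5.44 and -2.58 in Tabby, a fitted difference of -7.08 ± 0.76 (SE, limma adjusted p = 9.5e-05). Neither Tabby array was above background, and on the Cy3 signal the loss was at least 11.5-fold. At Z00041684-1 the ratios were 7.20 and 6.67 in WT and exactly 0.00 in both Tabby samples, and at Z00051777-1 they were 6.94 and 6.33 against 0.00 and 0.00. The losses were at least 3.79-fold and at least 3.25-fold. Of 1638 ratios of exactly 0 on the adult arrays, 1602 came from spots where the software had put a surrogate for the signal of both dyes, and 8 called probes had both Tabby arrays at exactly 0. The fitted differences and p-values of such probes rest on values that carry no spread.

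Among the rest of the 12, Z00025973-1 and Z00032932-1 were called lower at earlier stages too. Z00025973-1 stood at 0.11 and -0.35 in WT and -6.06 and -6.56 in Tabby, with the Cy3 loss at least 4.76-fold, and its difference was -3.40 at P1, -6.13 at P3 and -7.99 at P5, each called. Z00032932-1 stood at 1.14 and 0.80 against -3.51 and -4.29, after -2.03 at P3 and -2.88 at P5. The remaining 5, Z00022475-1, Z00040026-1, Z00027353-1, Z00031939-1 and Z00073934-1, had fitted differences from -5.83 at Z00022475-1 to -4.90 at Z00073934-1, and none was called lower at P3 or P5. No Tabby array was above background at Z00040026-1, Z00031939-1 and Z00073934-1, whose losses were at least 3.69-fold, at least 1.73-fold and at least 2.22-fold. At Z00022475-1 and Z00027353-1, 1 Tabby array was. After normexp and loess the differences of the 5, in the order named, were -4.11, -1.98, -2.21, -0.95 and -1.29. All 12 were negative under every alternative that gave a value, which their choice favours. With the adult arrays alone none of the 12 was called, and with array weights Z00040026-1 and Z00073934-1 were not called either. The class required that the 2 samples of WT and the 2 of Tabby not overlap, so their separation was fixed by the choice.

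**Figure D2:**
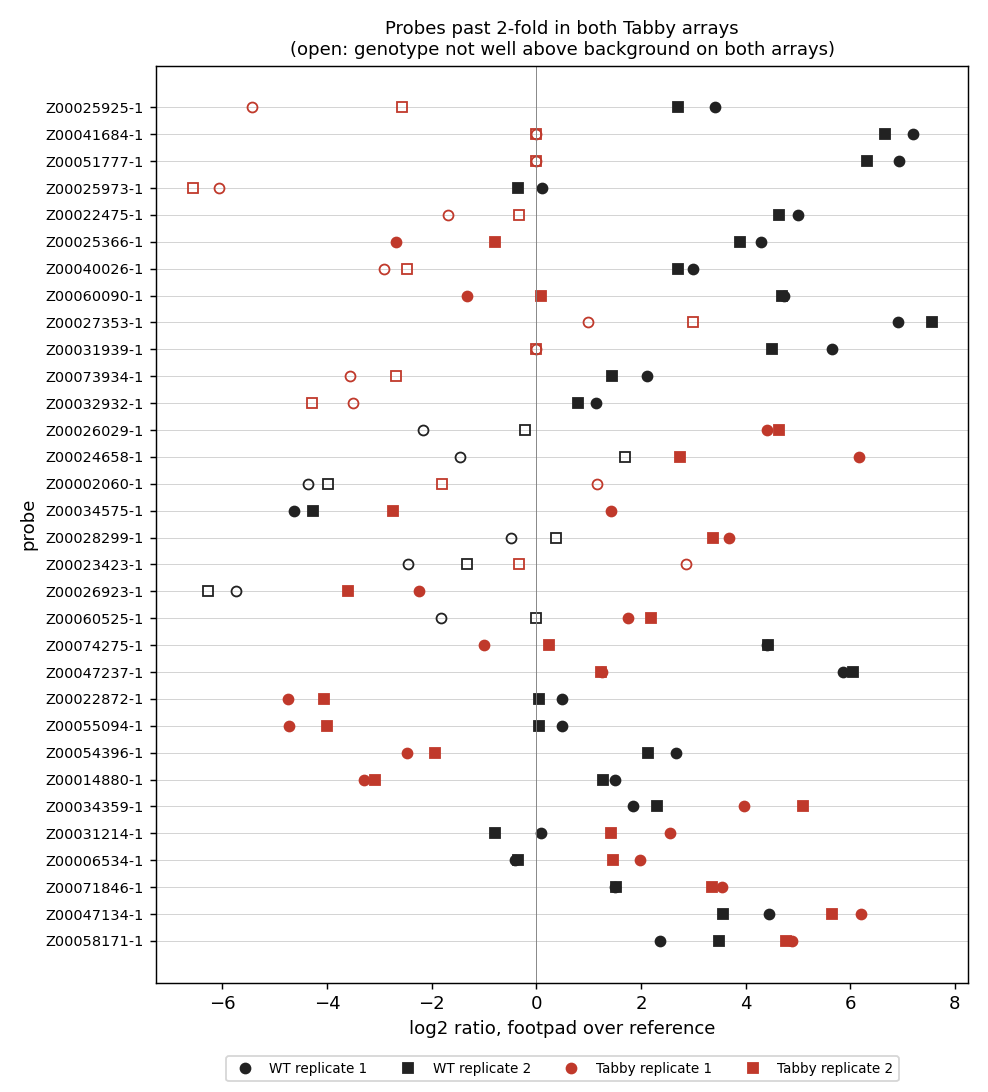
Log2 ratio of footpad over reference (horizontal) on the 4 adult arrays for the named probes (vertical) past 2-fold in both Tabby samples. Open symbols mark a genotype that was not well above background on both arrays. Most of the largest losses and gains have an open genotype, whereas the probes from Z00074275-1 down are filled in both.

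Gains shared by both Tabby samples were rarer and smaller. Z00006534-1 had the lowest adjusted p of 6 gains with signal on all 4 arrays, again named after their values were seen. It stood at -0.41 and -0.34 in WT and 1.98 and 1.47 in Tabby. All 4 arrays were above background, and both Tabby samples were above both WT samples by over 1.8 log2. The gain was 4.30-fold, at 2.10 ± 0.17 (SE) log2 (limma adjusted p = 7.8e-06), and 2.01 log2 after normexp and loess. At P5 the probe was at -0.36 (limma adjusted p = 0.52). Its ratios at the earlier stages were 3.93 to 4.80 over both genotypes, above those of all 4 adult samples. Slide and stage cannot be told apart in such levels. Z00031214-1 stood at 0.09 and -0.79 in WT and 2.55 and 1.43 in Tabby, a gain of 2.34 ± 0.31 (SE, limma adjusted p = 0.00054), or 1.81 after normexp and loess. Its earlier ratios were -0.32 to 0.61 over both genotypes, below both adult Tabby samples.

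The gain at Z00058171-1 was uneven on the footpad signal. Its ratios were 2.36 and 3.50 in WT and 4.89 and 4.77 in Tabby, while its Cy3 signals were 6.67 and 6.62 in WT and 10.91 and 7.17 in Tabby. The ratios of the Tabby samples were alike, whereas their footpad signals were over 3 log2 apart. The reference was well above background on only 1 of the 4 arrays. Z00034359-1, Z00071846-1 and Z00047134-1 gained 2.45, 1.95 and 1.91 log2 by the ratio, and 0.98, 0.76 and 1.03 after normexp and loess.

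Of the 8 largest gains among called probes, 1 was above background on all 4 arrays, Z00034575-1, and the other 7 were on no WT array. The largest was Z00026029-1, at -2.17 and -0.22 in WT and 4.41 and 4.63 in Tabby, with the Cy3 gain at least 3.05-fold. It remained called under 15 of 16 alternatives. Z00060525-1, at -1.83 and 0.00 against 1.74 and 2.19 and at least 3.83-fold higher on Cy3, remained called under 14 of 15. Z00034575-1 stood at -4.64 and -4.27 in WT and 1.44 and -2.74 in Tabby, so replicate 1 carried most of its gain. It was called under 6 of 17 alternatives, Z00024658-1 under 6 of 16 and Z00028299-1 under 5 of 15. Z00002060-1, Z00023423-1 and Z00026923-1 gained 3.85, 3.16 and 3.09 log2 by the ratio and 0.75, 0.69 and 0.58 after normexp and loess, where none of them was called.

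The genotype differences of the other stages played no part in choosing the adult probes. The spread of those arrays did, through the shared fit, so the shares below are not independent of the choice. Of the 434 probes called lower and past 2-fold in both adult Tabby samples, 63 were also called lower at 1 or more earlier stages, against 0.713% of all tested probes, and 371 were called lower at none. Calls at all stages share the spread of 1 fit. At P5, both Tabby arrays lay below both WT arrays at 226 of the 434 (52.1%), against 25.9% of all tested probes. At P3 it was 211 (48.6%, against 25.6%), at P1 131 (30.2%, against 15.2%) and at E17.5 114 (26.3%, against 16.7%). The 371 with no earlier call showed the same lean at P5, at 164 probes (44.2%). The adult gains did not: at P5, both Tabby arrays were above both WT arrays at 16 of 58 probes (27.6%, against 26.9%). Of the 58, 0 were called higher at an earlier stage, and with only 0.19% of all tested so called this count cannot tell them apart. The gains were also dimmer at P5, with median Cy3 signals of 6.59 log2 in WT and 6.66 in Tabby, against 7.66 and 7.31 for the losses. The part of signal was not tested. Over the whole table, the genotypes differed at 12 probes at E17.5 (0.0374%), at 20 at P1 (0.0623%), at 116 at P3 (0.361%) and at 221 at P5 (0.688%).

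The stage courses describe probes split by their calls, so the adult difference and the split between the sets are fixed by the choice and were not tested. Among the 63 probes, the median WT Cy3 signal was 7.79 log2 at E17.5 and 8.08, 8.47 and 8.73 at the next stages, before 9.91 in adults. In Tabby it was 7.65, 7.56, 7.32, 7.32 and 7.49. WT signal was higher at each later stage, and Tabby signal was not. The median difference in log2 ratio went from -0.20 at E17.5 through -0.52, -1.04 and -1.63 to -2.99 in adults. Among the 371 probes, median WT signal lay between 7.44 and 7.47 up to P5 and at 8.52 in adults. Tabby signal lay between 7.30 and 7.37 up to P5 and at 7.01 in adults. Their median difference was -0.15 at P5 and -1.95 in adults. Each stage lay on a slide of its own, so levels between stages and slides cannot be told apart, whereas each genotype difference was measured within a slide.

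**Figure D3:**
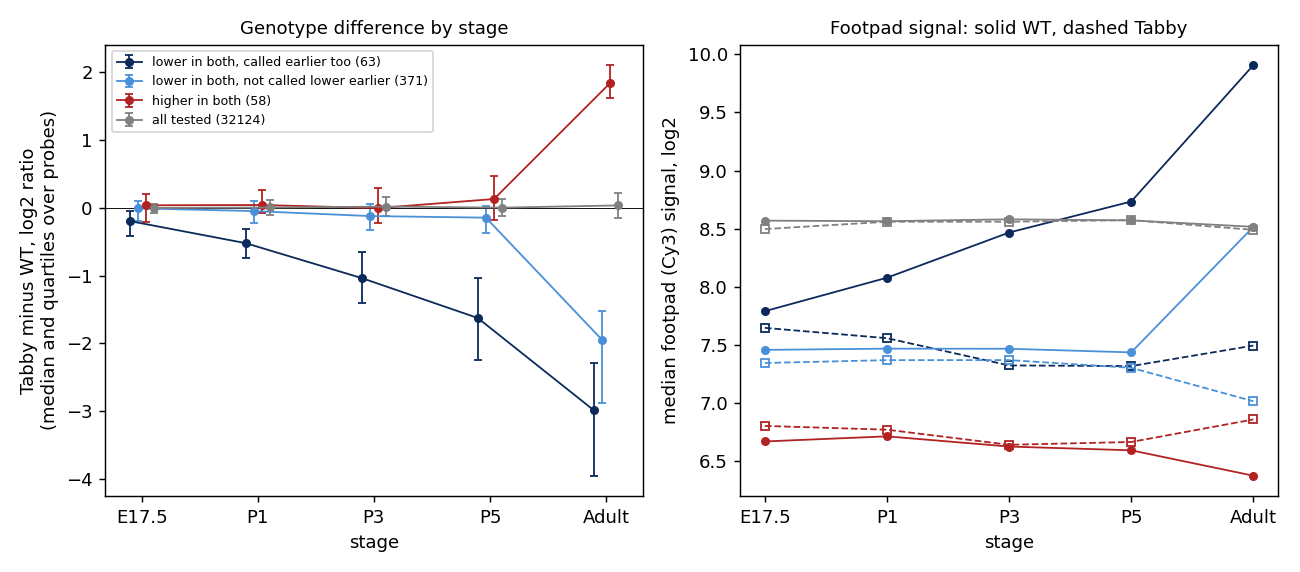
Left, the Tabby minus WT difference in log2 ratio by stage, as median and quartiles over probes, for called probes past 2-fold in both adult Tabby samples and for all tested probes. Right, the median Cy3 signal of the same probes in WT (solid) and Tabby (dashed). The sets were chosen by their adult and earlier calls, so the pattern is a description: the median of the 63 is -1.63 at P5 and -2.99 in adults, that of the 371 others -0.15 and -1.95.

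The difference between adults and earlier stages was tested directly, as the adult genotype effect minus the mean effect of the 4 earlier stages. It was called more negative in adults at 1240 probes (3.86%) and more positive at 600 (1.87%). Of the 434 losses 395 were among the former, and of the 58 gains 40 were among the latter, which the choice by adult values favours. At Z00074275-1 the adult effect was lower by 4.53 ± 0.31 (SE) log2, and at Z00006534-1 it was higher by 2.29 ± 0.19. Z00025973-1 had the smallest such difference of the 12 largest losses, -1.86 ± 0.31 (SE, limma adjusted p = 0.0044). It was already called lower at P1, P3 and P5, and its loss at P5 (-7.99) was larger than in adults (-6.19).

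Probes past 2-fold in 1 Tabby sample alone were more numerous than those past it in both. Counted over probes well above background on all 4 arrays, 259 were high in replicate 1 alone, 156 were high in replicate 2 alone, 212 were low in replicate 1 alone and 82 were low in replicate 2 alone. The same counts at the 4 earlier stages were 19 to 36, 18 to 61, 43 to 63 and 60 to 72. Adult samples thus held more one-sample changes than any earlier pair, most of all upward in replicate 1. In most cases the other Tabby sample lay outside the WT range in the same direction, by less than 2-fold, against WT values that the classes share: at 188 of the 259, 102 of the 156, 171 of the 212 and 68 of the 82. The median gap of the other sample to the nearer WT array was 0.20, 0.21, -0.52 and -0.54 log2 in the same order. These counts and gaps have no matching value over all tested probes beside them, so they only describe the classes. After normexp and loess, 106 of the 259, 43 of the 156, 68 of the 212 and 21 of the 82 stayed in their class.

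**Figure D4:**
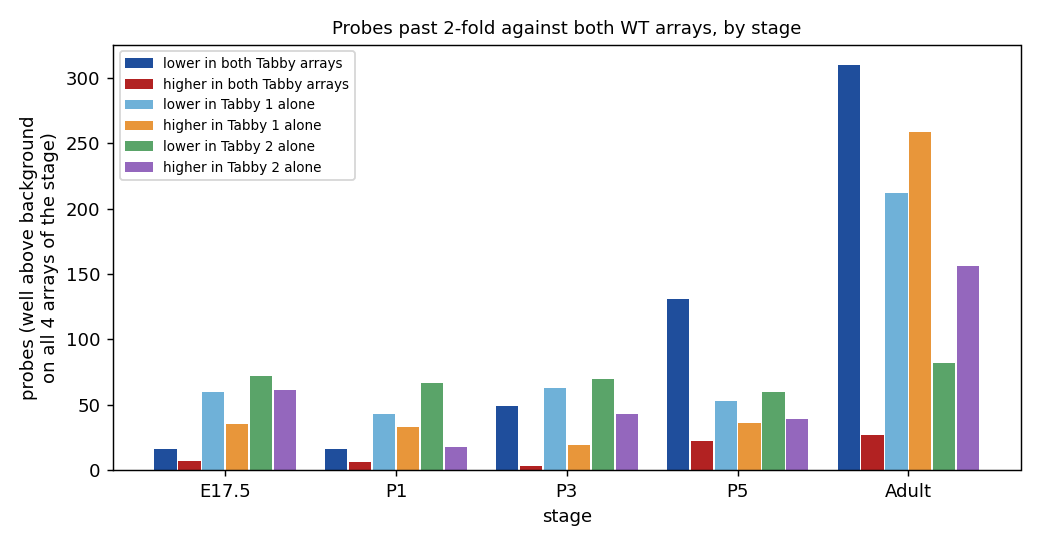
Number of probes (vertical) over 2-fold beyond both WT arrays of the same stage, by stage (horizontal) and by which Tabby sample moved, among probes well above background on all 4 arrays of that stage. Probes lower in both Tabby samples number 16, 16, 49, 131 and 310 from E17.5 to adult, and those high in replicate 1 alone 259 in adults against 19 to 36 before.

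Some probes high in replicate 1 alone reached a high signal there. Z00058188-1 had ratios of -1.39 and -0.93 in WT and 4.28 and -0.06 in Tabby. Its Cy3 signals were 8.72, 9.07, 14.23 and 9.88 log2 in the same order. Replicate 1 stood alone, and replicate 2 was still above both WT samples. The mean difference of 3.27 ± 0.95 (SE) log2 was not called (limma adjusted p = 0.053).

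Z00023637-1 followed the same order of samples. Its ratios were -1.59 and -1.21 in WT and 4.15 and -0.36 in Tabby, and its Cy3 signals were 7.08, 7.23, 11.82 and 7.76 (limma adjusted p = 0.058). Z00030685-1 stood at -5.15 and -4.92 against -0.46 and -4.53, and Z00026647-1 at -5.42 and -5.13 against -0.84 and -5.08. Neither was called, and in both replicate 2 was within 0.4 log2 of a WT sample. Z00023034-1, at -4.47 and -3.84 against 0.70 and -2.88, was called (limma adjusted p = 0.028). The widest gap of all was at Z00023825-1, at 1.07 and 0.76 in WT and 8.60 and 0.70 in Tabby, where replicate 2 was not well above background.

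Z00047679-1 was the brightest named probe that was low past 2-fold in replicate 2 alone. Its ratios were 4.42 and 4.47 in WT and 3.74 and 2.01 in Tabby, and its Cy3 signals were 13.43, 13.06, 11.52 and 9.11. Both Tabby samples were below both WT samples, replicate 2 by far more (limma adjusted p = 0.032). Z00049078-1 was graded likewise, at 2.03 and 1.82 against 0.87 and -0.45 (limma adjusted p = 0.0039). Z00074237-1 and Z00039540-1 were high in replicate 2. The former stood at -0.42 and -0.87 in WT and 0.21 and 1.85 in Tabby, the latter at -0.02 and -0.36 against 0.50 and 2.34, with limma adjusted p-values of 0.016 and 0.027. In these 4 probes the other Tabby sample lay between the WT samples and the outlying one.

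Z00025428-1 had the widest fall in replicate 1 alone, at 2.92 and 3.36 in WT and -1.54 and 3.08 in Tabby, with all 4 arrays above background (limma adjusted p = 0.15). At Z00028342-1 the ratio and the signal differed. Its ratios were 6.53 and 5.57 in WT and 3.34 and 5.57 in Tabby, but its Cy3 signals were 7.68 and 7.84 against 8.09 and 7.44. The low ratio of replicate 1 came with the highest footpad signal of the 4 samples, and the reference was above background on 1 array. Most of the other probes ranked by this gap were not above background on all 4 arrays, and their gaps ran from 2.26 to 6.99 log2.

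**Figure D5:**
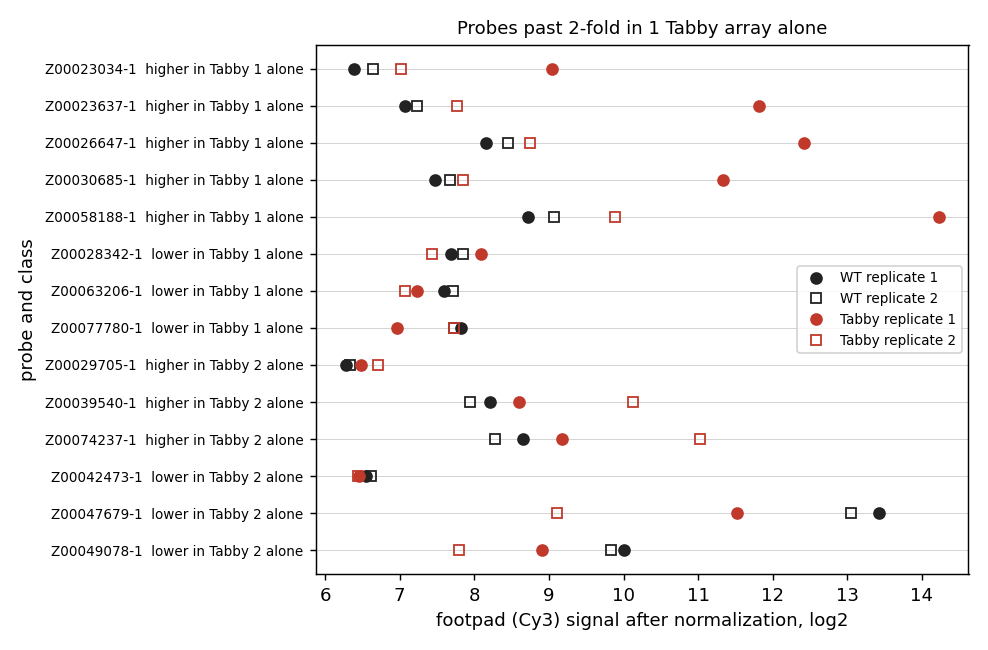
Normalized Cy3 footpad signal in log2 (horizontal) on the 4 adult arrays for probes (vertical) past 2-fold in 1 Tabby sample alone and above background on all 4. Replicate 1 stands at 14.23 at Z00058188-1 while the other samples lie between 8.72 and 9.88.

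Probes that overlap another by 30 bases or more gave a reading of 1 target from separate spots. Of 767 such pairs among tested probes, 102 held a called probe and 99 of these pairs had the same sign. Both probes were called in 59 pairs, all of the same sign. Both were in the shared-loss class in 8 of the 17 pairs with such a probe. For single-sample classes it was 6 of 17 (high in replicate 1), 5 of 19 (low in replicate 1), 4 of 9 (high in replicate 2) and 1 of 6 (low in replicate 2), and for shared gains 0 of 2. Z00031078-1 and Z00031079-1 differ at the base shown in lower case and share the other 59.
Z00031078-1: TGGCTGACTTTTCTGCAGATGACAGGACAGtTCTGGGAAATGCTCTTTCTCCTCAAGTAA
Z00031079-1: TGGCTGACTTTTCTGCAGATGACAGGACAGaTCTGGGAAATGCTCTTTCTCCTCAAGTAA
The former stood at -2.61 and -1.48 in WT and -0.96 and -0.21 in Tabby, and the latter at -2.37 and -1.35 against -0.79 and -0.10. Replicate 2 was high past 2-fold at both, and each was called (limma adjusted p = 0.015 for both). Overlapping probes share a target and the labelled RNA, so they count as 1 measurement of a sample. Other pairs differed. Z00023344-1 and Z00076602-1 share 59 bases and stood at differences of 0.16 and 1.27 log2. Z00020831-1 and Z00036295-1 share 42 and stood at -1.07 and 0.04. No share over all 767 pairs stands beside the counts above, so they only describe the pairs.

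The authors' deposited table of values held 25030 probes, of which 19626 were tested here. After 1 constant per probe was removed, it departed from the scanner ratios by more than 0.01 log2 on single arrays. Of the 311 probes high in replicate 1 alone that it held, 107 were changed on that array, 106 on Tabby replicate 2 and 74 and 84 on the WT arrays. On 38 of the 107 the new value equalled that of replicate 2 within 0.01 log2. Of the 220 low in replicate 1 alone, 89 were changed on that array, 56 on replicate 2 and 39 and 43 on the WT arrays, and 31 were made equal within the same limit. Of 207 high and 201 low in replicate 2 alone, 79 and 106 were changed on that array, 63 and 65 on replicate 1, and 15 and 5 made equal. Of 18306 probes in no class, 1121 were changed on Tabby replicate 1 and 1168 on replicate 2. In the authors' deposited table, Z00023825-1 stood at 0.70 in both Tabby samples, and Z00025366-1 at -0.78 in both, against -2.68 and -0.78 in the scanner files. What was done to these values is not given in the sources used here.

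A small share of probes could be placed on the genome. Their 60 bases were matched to RefSeq's windows around gene starts (GRCm38.p6), with no test of matches elsewhere. Of 204 tested probes found at 1 place, 9 were called (4.41%, against 9.21% of all tested), 6 lower and 3 higher. Of these, 3 lay inside a RefSeq gene on its strand. Z00056199-1 lay at chr7:3665794-3665853 on the minus strand, inside Tmc4, a member of the transmembrane channel-like family. It stood at 0.90 and 0.58 in WT and -0.41 and -0.54 in Tabby, a fall of 2.33-fold (limma adjusted p = 1.0e-04). Both Tabby samples were below both WT samples, and replicate 1 missed the 2-fold limit narrowly. At P5 its difference was -0.14 (limma adjusted p = 0.79).

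Most of the other placed probes changed less. Z00001912-1, inside Zbtb22 at chr17:33919254-33919313 (plus strand), fell by 0.33 log2, and Z00010249-1, inside Zbtb8a at chr4:129354034-129354093 (minus strand), fell by 0.33 as well. Both genes encode zinc finger proteins with a BTB domain. Z00070363-1 lay inside Hoxb2, a homeobox gene, at chr11:96353540-96353599. It stood at -1.50 and -1.85 in WT and -1.12 and -0.97 in Tabby, a rise of 0.63 ± 0.12 (SE, limma adjusted p = 0.0064). Z00075220-1 lay inside Tmem82 at chr4:141614309-141614368 and rose by 0.71 (limma adjusted p = 0.015). The strand of the last 2 genes is not in the table used. Z00066642-1, at chr2:68472883-68472942 in the start window of Gm13596, stood at 3.12 and 2.89 in WT and 0.00 and 1.32 in Tabby, and no Tabby array was above background.

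The median GC content was 45.0% over all tested probes, 43.3% in the 434 shared losses and 41.7% in the 1144 probes called higher. Hexamers were searched on the printed strand of each probe. AATAAA stood in 9.68% of the shared losses and in 7.45% of all tested probes. Its reverse complement TTTATT stood in 3.23% and 3.10%. The variant ATTAAA stood in 3.23% and 3.25%, and its reverse complement TTTAAT in 4.15% (18 probes) and 2.25%. In the other probe sets, AATAAA ran from 5.66% (low in replicate 1 alone, signal on all 4 arrays) to 12.1% (7 of the 58 shared gains). TTTAAT ran from 1.89% to 5.17% (3 probes) in the same sets, so neither share was highest in the losses. No other motif was searched, and these shares were not tested.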

How the data were processed

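Members, classes and lists were chosen with earlier results of these data known. Per the file headers, Agilent Feature Extraction 9.5.1.1 read the arrays. The deposited files hold spot signals as intensity and LogRatio, a log10 ratio of reference (Cy5) over footpad (Cy3). The authors' deposited table is on the log10 scale. Its adult column medians were 2.53. In 64.4% of its rows it followed footpad over reference plus 1 constant, within 0.001 on the log10 scale. The other rows departed from this, and its centring is otherwise unknown.

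Control spots were dropped, spots of a probe averaged, and minus LogRatio turned to log2. Probes with Cy3 well above background on 2 or more arrays entered limma 3.58.1 (R 4.3.3), with 1 mean per group over 20 arrays, eBayes and Benjamini-Hochberg adjustment over 32124 probes. The scripts were tested on simulated data. Named probes were the 12 largest losses and 8 largest gains, called and past 2-fold in both Tabby samples, and 5 per single-sample class by gap to the nearer WT array. Others were named after their values were seen, for signal on all 4 arrays, overlap or place. Names were to come from translated probes, but no protein table was at hand, so identifiers stand in. Signals for bounds were corrected by normexp (offset 50), loess and Aquantile.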

Additional observations from a re-analysis of the deposited data

Results flagged for a closer look

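The genotype effect in adults differed from the mean effect of the 4 earlier stages, by the limma contrast of the 2, at 17 of the 20 largest shared changes. Their choice by adult values favours this. In log2, the adult effect minus the earlier one among the losses was -7.39 at Z00025925-1, -6.96 at Z00041684-1, -6.65 at Z00051777-1, -1.86 at Z00025973-1, -6.18 at Z00022475-1 and -4.07 at Z00025366-1. It was -5.63 at Z00040026-1, -5.15 at Z00060090-1, -5.14 at Z00027353-1, -5.26 at Z00031939-1, -4.32 at Z00073934-1 and -3.47 at Z00032932-1. Among the gains it was 5.76 at Z00026029-1, 3.50 at Z00002060-1, 3.16 at Z00023423-1, 3.52 at Z00026923-1 and 2.91 at Z00060525-1. The mean of the earlier stages can hide a larger loss at one of them: Z00025973-1 was at -7.99 at P5 and -6.19 in adults. In each adult group there were 2 samples, and slide and stage cannot be told apart.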

How the results depend on the processing

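Under the alternatives, 0 or 1 probes were called in the opposite direction. Against 2959 calls (1815 lower, 1144 higher), array weights gave 726 (638 and 88), the 4 adult arrays alone 0 (0 and 0), and the replicate block 1955 (1319 and 636). Calls higher fell to 587 with normexp and loess and 612 with scale normalization. Lower probes were 61.3% of calls in the main result. They were 87.9% with array weights, 71.7% without WT replicate 1, 70.3% with normexp and loess, 69.2% with scale normalization, 55.8% without Tabby replicate 1, 55.0% in the authors' deposited table and 50.8% without Tabby replicate 2. Leaving out 1 adult array gave 1326 (without WT replicate 1) to 6193 calls (without Tabby replicate 2), 951 to 3146 lower and 375 to 3047 higher; the lone sample is assumed to vary like the other groups. The cause was not tested. Same-numbered samples did not pair: the correlation of their deviations was -0.064 to 0.138 over the stages. The 1840 calls of the adult effect minus the earlier one became 1199 with normexp and loess and 1092 with the replicate block.

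The 2-fold classes are given in the order lower in both, higher in both, low and high in replicate 1 alone, low and high in replicate 2 alone. They held 275, 8, 98, 152, 54 and 50 probes with normexp and loess. They held 279, 19, 97, 167, 114 and 110 on Cy3 alone. In the authors' deposited table, with fewer probes, 301 were lower in both, 105 were higher in both and 162, 246, 154 and 149 were in the single classes. With no filter, 166 were higher in both, 609 and 927 were in the replicate 1 classes and 706 were high in replicate 2. With signal on 2 of 4 adult arrays, 46, 341 and 211 were higher in both, in replicate 1 and in replicate 2. With signal on all 4, a setting added after seeing the data, the classes held 310, 27, 212, 259, 82 and 156. The gap to the nearer WT array turned to 0.32 at Z00062162-1 and -0.12 at Z00061103-1 on Cy3 alone. In the authors' deposited table it turned to 0.16 at Z00025428-1, -0.37 at Z00023825-1, and 0 at Z00076473-1 and Z00023883-1.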
